A study of Mus musculus with 14 samples.

Results

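The adult heart muscle cell builds its contractile unit from one set of protein isoforms, and the fetal heart, the atrium and skeletal or smooth muscle use others. The 10 genes described here are isoform genes of the sarcomere: the myosin heavy chains Myh6, Myh7 and Myh7b, the actins Acta1, Acta2 and Actc1, the troponins Tnni1 and Tnnt1, and the atrial myosin light chains Myl4 and Myl7. They were chosen by name as adult and fetal sarcomere isoforms, and they are 10 of the 49315 genes in the count table. Of these, 9 had enough reads to be tested, among 15292 tested genes, and Tnni1 did not.

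RNA was taken from the left ventricle of male mice 5 weeks after transverse aortic constriction (TAC), which narrows the aorta and raises the pressure against which the ventricle ejects, or after Sham surgery. The mice were 10 to 12 weeks old at surgery. HCN4F mice carry a knock-in change of a single amino acid in the HCN4 pacemaker channel that raises channel activity and heart rate, and WT mice carry the unchanged channel. The groups held 4 WT-Sham, 4 HCN4F-Sham, 2 WT-TAC (replicates 2 and 3) and 4 HCN4F-TAC libraries of poly(A)-selected RNA, while further WT-TAC mice of the study were not analysed here. Strain and zygosity are not given in the labels. The knock-in changes the channel protein and not the amount of its transcript by design, so gene counts cannot check the genotype. The tissue was sequenced in bulk, where fewer cells of a type and less RNA per cell cannot be told apart.

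Library totals ran from 22309914 to 35210939 counted reads, of which the 10 isoform genes took 3.62% to 4.45%. Values are given as CPM, the counts of a gene relative to the total of its library after scaling between libraries. For a gene without a read, the upper limit (3 reads) lay between 0.0858 and 0.137 CPM in these libraries, counting error alone considered. Myl2, the regulatory light chain gene of the ventricle, was abundant in every library at 5035 to 7529.6 CPM. Tnnt2, the troponin T gene of heart muscle, was at 7227 to 11247 CPM. HCN4F-TAC replicate 2 stood apart in some atrial transcripts, such as Sln, an atrial regulator of the calcium pump, at 3.78 CPM against at most 0.285 CPM in any other library, and not in others, such as Bmp10, which had no read there. Values of the isoform genes to which this library contributed most are given with and without it.

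Myosin heavy chain is the motor of the thick filament. In the mouse ventricle the slow isoform, encoded by Myh7, prevails before birth and the fast isoform, encoded by Myh6, replaces it afterwards. Renewed expression of Myh7 and of the skeletal actin gene Acta1 belongs to what is known as the fetal gene program of the loaded heart. Actc1 encodes the cardiac actin of the adult thin filament, Acta2 the actin of smooth muscle, which is also made in the early heart, and Tnni1 and Tnnt1 the slow skeletal forms of troponin I and troponin T.

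Myh6 and Myh7 lie head to tail on the minus strand of chromosome 14 (GRCm38), Myh6 at chr14:54941921-54966927 and Myh7 at chr14:54970684-54994626, with 3756 bases between them. Myh7b lies at chr2:155611212-155634307 on the plus strand. The actin genes, all on minus strands, are at chr8:123891769-123894751 (Acta1), chr19:34241090-34255590 (Acta2) and chr2:114047282-114053548 (Actc1). Tnni1 (chr1:135779434-135810989, plus strand) lies 25364 bases from Tnnt2, and Tnnt1 (chr7:4504570-4516382, minus strand) 1922 bases from Tnni3. Myl4 is at chr11:104550663-104595753 on the plus strand and Myl7 at chr11:5896637-5898782 on the minus strand. Each of the 3 myosin genes hosts a microRNA inside an intron, and the mature sequences are shown because their seeds are alike. The capitals mark the seed, bases 2 to 8 from the 5′ end. The sequences are from RefSeq on GRCm38.p6.
miR-208a-3p, in Myh6: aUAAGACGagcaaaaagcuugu
miR-208b-3p, in Myh7: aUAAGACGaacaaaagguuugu
miR-499-5p, in Myh7b: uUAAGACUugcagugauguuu
The first and second shared the same seed, and the third differed from it in the last base of the seed. None of the 3 mature microRNAs was measured in these libraries.

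The windows before the RefSeq start sites of Acta1, Actc1 and Myl7 each held a CArG box, the motif bound by serum response factor, a pattern that reads alike on both strands. The last 150 bases before the start are shown for these, since Acta1 and Actc1 encode the pair of sarcomeric actins, and capitals mark the CArG box and the letters CATTCC, the core of the M-CAT element bound by TEAD factors, searched on both strands. For Myh7, 250 bases are shown because its CATTCC lay farther upstream, on the strand opposite to the gene, so that it reads GGAATG in the printed line.
Acta1, chr8:123894776-123894925, minus strand: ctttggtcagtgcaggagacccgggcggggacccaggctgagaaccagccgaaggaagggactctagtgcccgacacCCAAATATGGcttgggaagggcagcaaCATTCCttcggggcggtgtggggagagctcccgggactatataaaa
Actc1, chr2:114052876-114053025, minus strand: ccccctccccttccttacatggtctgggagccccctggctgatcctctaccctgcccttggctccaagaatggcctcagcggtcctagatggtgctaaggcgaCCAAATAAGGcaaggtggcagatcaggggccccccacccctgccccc
Myl7, chr11:5898783-5898932, minus strand: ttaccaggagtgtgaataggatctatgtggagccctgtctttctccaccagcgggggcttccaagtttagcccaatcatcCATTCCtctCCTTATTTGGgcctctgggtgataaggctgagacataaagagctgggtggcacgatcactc
Myh7, chr14:54994627-54994876, minus strand: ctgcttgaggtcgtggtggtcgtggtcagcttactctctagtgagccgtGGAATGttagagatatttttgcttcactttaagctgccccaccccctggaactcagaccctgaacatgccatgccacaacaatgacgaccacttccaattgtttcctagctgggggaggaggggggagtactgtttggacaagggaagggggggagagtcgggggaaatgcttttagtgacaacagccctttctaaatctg
In Acta1 the CArG box lay at -73 to -64 and CATTCC at -46 to -41 from the start. The CArG box was at -47 to -38 in Actc1 and at -61 to -52 in Myl7. CATTCC was also in the windows of Myh6 (-206 to -201, opposite strand, against -201 to -196 in Myh7) and Acta2 (-146 to -141, opposite strand), whose windows are not shown. It was at -70 to -65 in Myl7 and not in those of the other 5 isoform genes. No exact match to the CArG pattern was in the 250 bases before the start of the other 7 isoform genes, and boxes that differ from the pattern by a base were not counted. Of the Acta2 window, 217 of 250 bases are exonic in GENCODE, so it holds little sequence upstream of that gene. Of 32851 RefSeq windows of that length, 1.47% held a CArG box and 12.6% held CATTCC on either strand. A match of letters is a description of the window and not a site shown to be bound.

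Acta1 was the isoform gene that differed most between TAC and Sham in both genotypes. It was read at 118, 173, 253 and 171 CPM in the WT-Sham libraries and at 183, 252, 191 and 172 CPM in HCN4F-Sham. After TAC it stood at 1191 and 1944 CPM in WT and at 3769, 5587, 2119.9 and 3634 CPM in HCN4F. Every TAC library lay above every Sham library, and every HCN4F-TAC library above both WT-TAC libraries. Acta1 rose 8.78-fold in WT (log2 fold change 3.13, SE 0.35, adjusted p = 0.00189) and 18.9-fold in HCN4F (log2 fold change 4.24, SE 0.34, adjusted p = 3.01e-05), by edgeR's quasi-likelihood test over all tested genes.

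The threshold for a call was an adjusted p-value of 0.05 together with a log2 fold change beyond 1 in either direction. By this rule 1 of the 9 tested isoform genes was called in WT, Acta1, where 0.706% of all tested genes were called. In HCN4F 2 of 9 were called, Acta1 and Myh7, where 2.75% of all tested genes were called. The median log2 fold change of the 9 genes was 0.10 in WT and 0.29 in HCN4F, against -0.02 and -0.01 over all tested genes. Myl7, which had few reads in most libraries, is among the 9. The libraries of TAC and Sham did not overlap for 4 of the 10 genes in WT and for 4 of 10 in HCN4F, against 39.2% and 15.1% of all tested genes. Both comparisons have their own Sham groups, and WT-TAC has only 2 libraries.

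**Figure D1:**
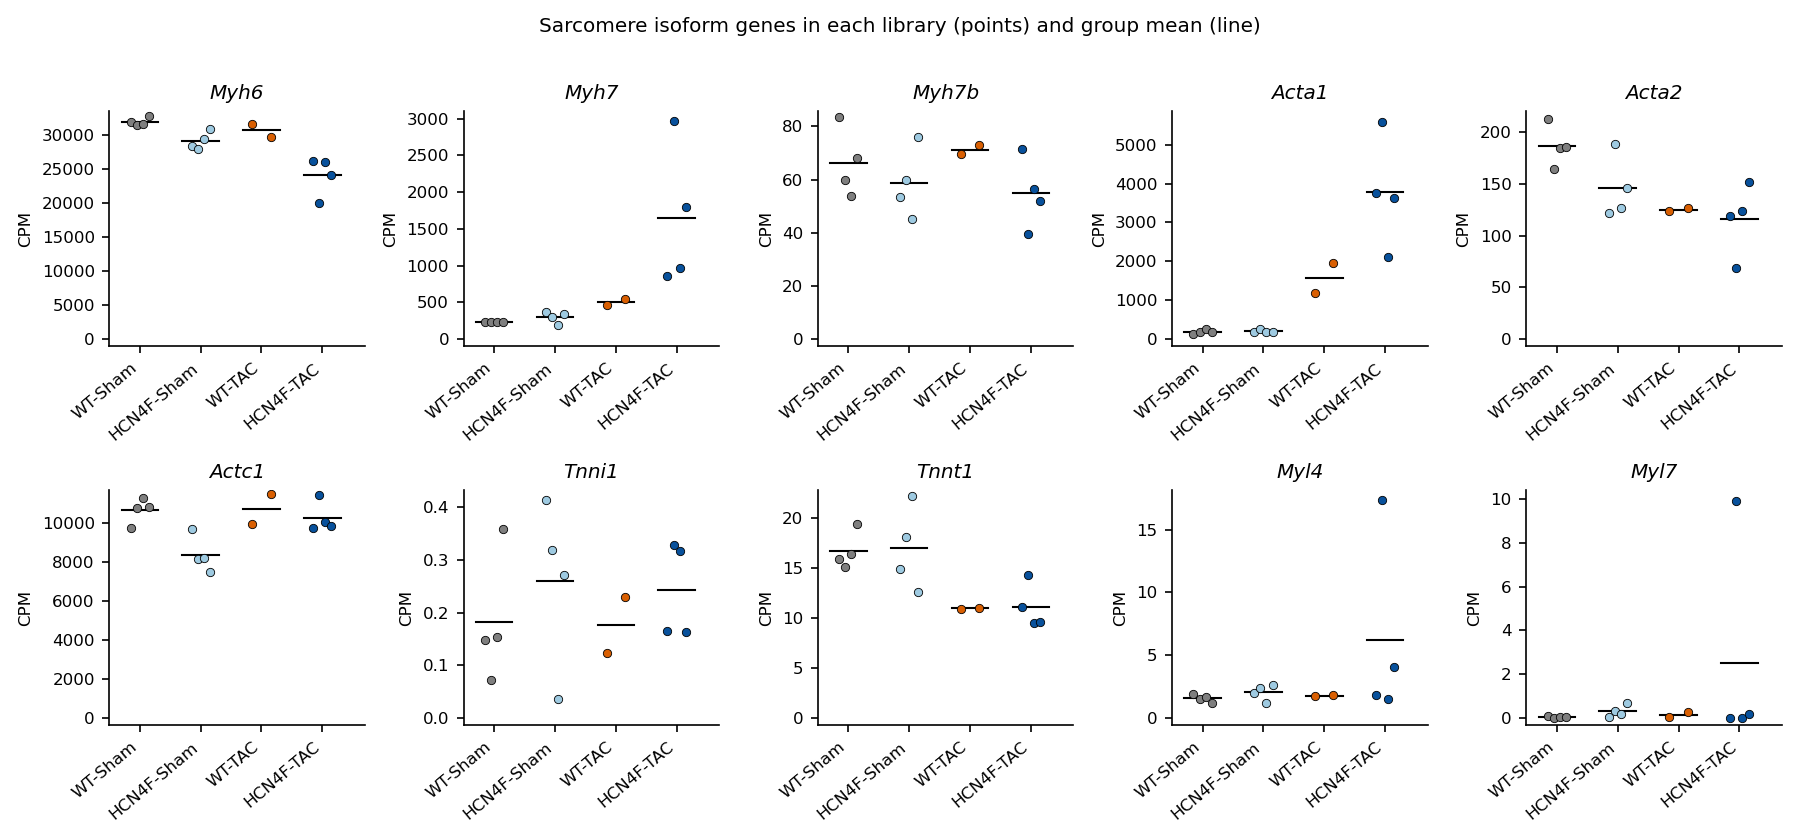
CPM of the 10 isoform genes in each of the 14 libraries (points, on linear axes) with the group mean (line). Acta1 reached 1191 to 5587 CPM after TAC against 118 to 253 CPM after Sham, and Tnni1 stayed below 0.5 CPM in every library.

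Myh7 was the other isoform gene called. It was read at 233, 230.1, 239 and 226 CPM in WT-Sham and at 371, 303, 185 and 339 CPM in HCN4F-Sham. The TAC libraries held 461 and 548 CPM in WT and 853, 2963, 962 and 1792 CPM in HCN4F. The WT-Sham libraries were nearly level, while the HCN4F-TAC libraries spread over more than a 3-fold range, and neither TAC group overlapped its Sham group. Myh7 rose 5.49-fold in HCN4F (log2 fold change 2.46, SE 0.37, adjusted p = 0.00159 by edgeR's quasi-likelihood test). In WT the log2 fold change was 1.12 (SE 0.42) and the adjusted p-value of the same edgeR test was 0.143. Fitted on the WT libraries alone, edgeR gave an adjusted p of 1.98e-05 and DESeq2 2.31e-33 for this WT difference, at log2 fold changes of 1.14 and 1.14. DESeq2 on all groups gave 0.0924, and edgeR with the replicate number as a block gave 0.224.

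The change of Myh7 in HCN4F was tested again without HCN4F-TAC replicate 2, its highest library. The log2 fold change was then 2.00 and the adjusted p of edgeR's quasi-likelihood test 0.00104, so the call was the same.

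Myh6, the main myosin of the adult mouse ventricle, was read at 31806, 31436, 31534 and 32796 CPM in WT-Sham and at 28294, 27869.7, 29352 and 30825 CPM in HCN4F-Sham. It stood at 31627 and 29632 CPM in WT-TAC and at 26198, 19953, 26021 and 24139 CPM in HCN4F-TAC. All HCN4F-TAC libraries lay below all HCN4F-Sham libraries, and the lowest was replicate 2. The log2 fold change in HCN4F was -0.27 (SE 0.08, adjusted p = 0.0358 by edgeR's quasi-likelihood test), past the p-value threshold but not the fold threshold. Without replicate 2 it was -0.20 with an adjusted p of 0.0836 by the same edgeR test, and on the HCN4F libraries alone edgeR gave 0.128. In WT the log2 fold change was -0.06 (SE 0.10, adjusted p = 0.777 by edgeR).

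Myh7b, a myosin of slow skeletal muscle and heart, was read at 39.4 to 83.5 CPM over all 14 libraries. Its log2 fold change was 0.10 (SE 0.23) in WT and -0.10 (SE 0.19) in HCN4F, with adjusted p-values of 0.833 and 0.771 by edgeR's quasi-likelihood test. Without HCN4F-TAC replicate 2, its lowest library, the value in HCN4F was 0.025 (edgeR, adjusted p = 0.95). The libraries of its Sham and TAC groups overlapped in both genotypes.

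Reads of Myh6 and Myh7 can be exchanged in counting, since 22.6% of the 50-base words of the Myh6 transcript also occur in other annotated transcripts, chiefly Myh7. Of 100-base words, 11.4% were shared. Read length and the treatment of reads that match more than 1 gene are not given in the sources used here. The Myh7 exons also overlap the antisense gene Mhrt over 484 bases, 5.62% of the Myh7 exon length, and 2 further antisense genes, Gm31251 and Gm29015, overlap them over 523 and 142 bases. Whether strand was used in counting is not stated, and without strand the reads of such pairs cannot be told apart. Mhrt itself was read at 13.9 to 43.5 CPM, and its lowest library was HCN4F-TAC replicate 2. Its exons hold 1214 bases against 8616 in Myh7, so CPM does not compare the levels of these 2 genes per length.

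The balance of the 2 cardiac myosins was followed as the ratio of Myh7 to Myh6 reads within a library, which does not depend on the scaling between libraries. Per base of exon, Myh7 made up 0.569%, 0.568%, 0.588% and 0.536% of the sum of both genes in WT-Sham and 1.01%, 0.84%, 0.49% and 0.85% in HCN4F-Sham. After TAC the share was 1.13% and 1.42% in WT and 2.48%, 10.4%, 2.8% and 5.48% in HCN4F. Every TAC library had a larger share than every Sham library, and Myh6 remained the larger of both in all 14 libraries. The exon length merges all annotated exons of a gene, 8616 bases for Myh7 and 6726 for Myh6. With the lengths of single transcripts, 6230 and 6113 bases, the shares of Myh7 would be higher in every library. The ratio was higher by 1.17 on the log2 scale in WT (exact permutation test, two-sided, p = 0.0667, the smallest that 2 against 4 libraries allow). In HCN4F it was higher by 2.60 (exact permutation p = 0.0286, the smallest for 4 against 4, and 0.229 after Benjamini-Hochberg adjustment over 48 ratio tests). Over both genotypes together the mean difference was 1.89 (exact permutation p = 0.000952, the smallest that these arrangements allow, adjusted p = 0.0229). Leaving out HCN4F-TAC replicate 2, the differences were 2.16 in HCN4F (exact permutation p = 0.0286) and 1.67 over both genotypes (exact permutation p = 0.0019).

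For the sarcomeric actins the share of Acta1 in the sum of Acta1 and Actc1, again per base of exon, was 1.27%, 1.66%, 2.31% and 1.63% in WT-Sham. It was 1.95%, 3.17%, 2.4% and 2.36% in HCN4F-Sham. After TAC it was 11.2% and 15.2% in WT and 29.0%, 34.0%, 18.2% and 28.0% in HCN4F. TAC and Sham libraries did not overlap within either genotype, and the HCN4F-TAC range lay above that of WT-TAC. The log2 ratio of the reads was higher after TAC by 3.14 in WT (exact permutation p = 0.0667) and by 3.88 in HCN4F (exact permutation p = 0.0286, adjusted p = 0.229). Over both genotypes the difference was 3.51 (exact permutation p = 0.000952, adjusted p = 0.0229). These 2 ratios were the ones with an adjusted p under 0.05 over both genotypes, of 8 ratios tested in 6 ways each.

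**Figure D2:**
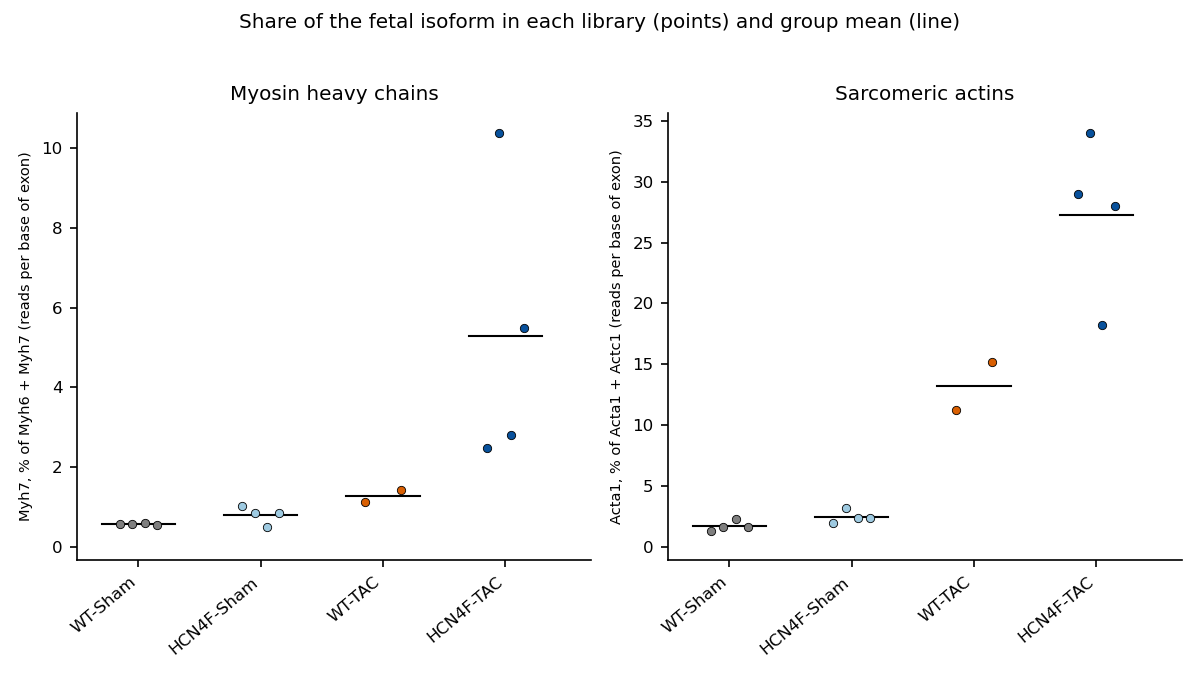
Share of Myh7 in the sum of Myh6 and Myh7 and share of Acta1 in the sum of Acta1 and Actc1, in percent of reads per base of exon, for each library (points) with the group mean (line). The HCN4F-TAC libraries reached 2.48% to 10.4% for Myh7 and 18.2% to 34.0% for Acta1, above all other libraries.

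Actc1 was the most abundant of the 10 genes per length of exon in every group, at a mean of 6575 ± 404 CPM per kilobase in WT-Sham (SD, n = 4), followed by Myh6 at 4742 ± 92.5 CPM per kilobase. Acta1, at 116 ± 36.0 CPM per kilobase in WT-Sham, stood at 1020.5 ± 347 in WT-TAC (SD, n = 2) and at 2459 ± 924 CPM per kilobase in HCN4F-TAC. Without regard to length, Actc1 was at 9714, 10761, 11253 and 10824 CPM in WT-Sham and at 9676, 8122, 8189.9 and 7491 CPM in HCN4F-Sham. It was at 9916 and 11469 CPM in WT-TAC and at 9735, 11415, 10029 and 9826 CPM in HCN4F-TAC. The HCN4F-Sham libraries were the lowest group, and their highest library lay only just below the lowest WT-Sham library.

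In HCN4F the log2 fold change of Actc1 with TAC was 0.29 (SE 0.09, adjusted p = 0.0359 by edgeR's quasi-likelihood test), with no overlap and under the fold threshold. Without HCN4F-TAC replicate 2 it was 0.23 with an adjusted p of 0.11 by the same edgeR test. With the replicate number as a block edgeR gave 0.0525, and on the HCN4F libraries alone 0.113. In WT it was 0.01 (SE 0.11, adjusted p = 0.981 by edgeR). Between the Sham groups the log2 fold change of HCN4F against WT was -0.35 (SE 0.09, adjusted p = 0.0871 by edgeR), and DESeq2 gave an adjusted p of 0.012 on all groups and 0.013 on the Sham groups alone.

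Acta2 was read at 164 to 213 CPM in WT-Sham, 121 to 189 CPM in HCN4F-Sham, 124 and 126 CPM in WT-TAC and 68.7 to 151 CPM in HCN4F-TAC. Both WT-TAC libraries lay below all WT-Sham libraries, while the HCN4F groups overlapped. The log2 fold change was -0.58 (SE 0.25) in WT and -0.33 (SE 0.20) in HCN4F, with adjusted p-values of 0.191 and 0.294 by edgeR's quasi-likelihood test. Without HCN4F-TAC replicate 2, the lowest library, it was -0.15 in HCN4F (edgeR, adjusted p = 0.549). On the WT libraries alone the adjusted p was 0.00505 by edgeR and 3.4e-06 by DESeq2, at a log2 fold change of -0.56 by both, while DESeq2 on all groups gave 0.0924 and edgeR with the replicate number as a block 0.383. The ratio of Acta2 to Actc1 was lower after TAC by -0.62 on the log2 scale over both genotypes (exact permutation p = 0.00381, adjusted p = 0.061), and by -0.48 without HCN4F-TAC replicate 2 (exact permutation p = 0.0114). Smooth muscle markers, the cells in which Acta2 is the main actin, summed to 408 to 503 CPM in WT-Sham against 395 to 409 CPM in WT-TAC, and to 354 to 453 CPM in HCN4F-Sham against 333 to 411 CPM in HCN4F-TAC. A large part of these sums was Synpo2, the only one of the markers that was higher on average in WT-TAC. It was at 116 to 143 CPM in WT-Sham and 168 and 197 CPM in WT-TAC. Myh11 was at 89.0 to 165 CPM in WT-Sham and 75.4 and 61.6 CPM in WT-TAC. Smtn was at 157 to 173 CPM and 127 and 128 CPM in the same groups. None of the 6 markers was called, and 2 passed the adjusted p-value alone in WT, 1 higher and 1 lower, against 4.54% of all tested genes. The median log2 fold change of the 6 was -0.47 in WT and -0.07 in HCN4F. Their part in the Acta2 levels was not tested.

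Tnnt1 was read at 15.9, 15.1, 16.4 and 19.4 CPM in WT-Sham and at 14.9, 18.1, 22.2 and 12.6 CPM in HCN4F-Sham. After TAC it was at 10.9 and 11.0 CPM in WT and at 11.1, 14.2, 9.5 and 9.63 CPM in HCN4F. The WT groups did not overlap, and in HCN4F only TAC replicate 2 reached into the Sham range. The log2 fold change was -0.61 (SE 0.20, adjusted p = 0.0922) in WT and -0.60 (SE 0.16, adjusted p = 0.0203) in HCN4F by edgeR's quasi-likelihood test, in neither case past the fold threshold. In WT the adjusted p was 0.0465 by DESeq2 on all groups, 0.00774 by edgeR and 0.000497 by DESeq2 on the WT libraries alone, and 0.118 by edgeR with the replicate number as a block. In HCN4F edgeR on the compared groups alone gave 0.0594. Without HCN4F-TAC replicate 2 the log2 fold change in HCN4F was -0.75 (edgeR, adjusted p = 0.00807). Relative to Tnnt2, the cardiac troponin T gene, which was itself lower after TAC, the difference over both genotypes was -0.29 (exact permutation p = 0.0267, adjusted p = 0.229).

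Tnni1, the fetal partner of the adult cardiac troponin I gene Tnni3, was close to the limit of detection. It had 1 to 11 reads per library, or 0.0361 to 0.414 CPM, and its 4 groups overlapped. It had too few reads for the test across genes, and no fold change is given. In the 6 tests of its ratio to Tnni3 the exact permutation p was 0.153 to 0.841. Tnni3 was read at 1703 to 3893 CPM over the same libraries.

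**Figure D3:**
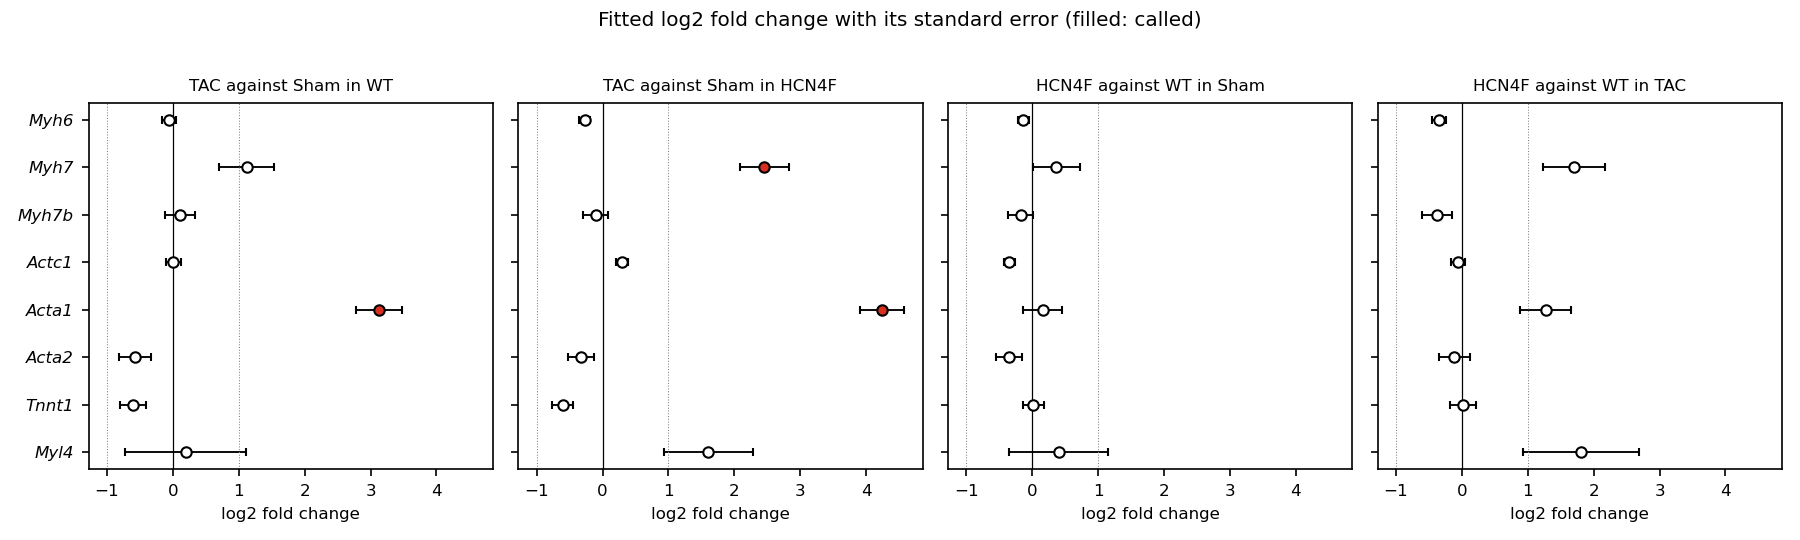
Log2 fold change (points) with standard error (bars) of 8 isoform genes in the 4 comparisons, with dotted lines at the fold threshold and filled points for called genes. Acta1 after TAC in WT (3.13) and HCN4F (4.24) and Myh7 after TAC in HCN4F (2.46) are the filled points, and Tnni1 and Myl7 are left out for their few reads.

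The atrial light chains were low in the left ventricle apart from 1 library. Myl4, the essential light chain of atrium and fetal ventricle, was read at 1.88, 1.52, 1.68 and 1.18 CPM in WT-Sham and at 1.99, 2.42, 1.19 and 2.62 CPM in HCN4F-Sham. It was at 1.77 and 1.80 CPM in WT-TAC and at 1.87, 17.3, 1.48 and 4.07 CPM in HCN4F-TAC. The value of 17.3 CPM belonged to replicate 2, and 2 of the other 3 HCN4F-TAC libraries lay within the range of the Sham libraries. The log2 fold change in HCN4F was 1.60 (SE 0.68, adjusted p = 0.147 by edgeR's quasi-likelihood test), and it was 0.25 without replicate 2 (edgeR, adjusted p = 0.683). In WT it was 0.19 (SE 0.92, adjusted p = 0.931 by edgeR).

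Myl7, the regulatory light chain of the atrium, had 0 to 23 reads in 13 libraries and 301 reads, or 9.91 CPM, in HCN4F-TAC replicate 2. The next highest library was HCN4F-Sham replicate 4 with 23 reads, or 0.694 CPM. It had 0 reads in 2 of the 4 HCN4F-TAC libraries and in 1 WT-Sham library. No fold change is given, since most libraries were at a few reads.

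Of the 10 atrial markers, Sln, Mybphl, which encodes a myosin-binding protein of the atrium, and Bmp10, a growth factor of the atrium, define that chamber most closely. In HCN4F-TAC replicate 2 Sln was at 3.78 CPM and Mybphl at 1.78 CPM, the highest of the 14 libraries for both, while Bmp10 had no read there. Nppa and Dkk3 were also highest in this library, Stard10 was lowest (10.5 CPM), and Kcna5, Gja5, Nr2f1 and Nr2f2 lay within the range of the other libraries. HCN4F-TAC replicate 4 was the second highest library for Sln, Mybphl (0.285 CPM each) and Myl4 (4.07 CPM) and the highest for Bmp10 (0.528 CPM). Sln was at 0 in 10 of the 14 libraries. The summed level of the 10 markers was 202 to 312 CPM in WT-Sham, 170 to 259 CPM in HCN4F-Sham, 282 to 359 CPM in WT-TAC and 501 to 1942 CPM in HCN4F-TAC. In HCN4F-TAC most of that sum was Nppa, the gene of atrial natriuretic peptide, which the loaded ventricle is known to express too, at 553, 1831, 410.0 and 1178 CPM. Among the 7 atrial markers tested, 2 rose (Nppa and Dkk3) and 1 fell (Stard10) with TAC in HCN4F, where 2.75% of all tested genes were called. The part of atrial tissue in the levels of Myl4, Myl7 and Myh7 in this library was not tested. Without it Acta1 and Myh7 were still called in HCN4F, as stated for Myh7 above, with a log2 fold change of 3.99 for Acta1 (edgeR, adjusted p = 4.23e-05).

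**Figure D4:**
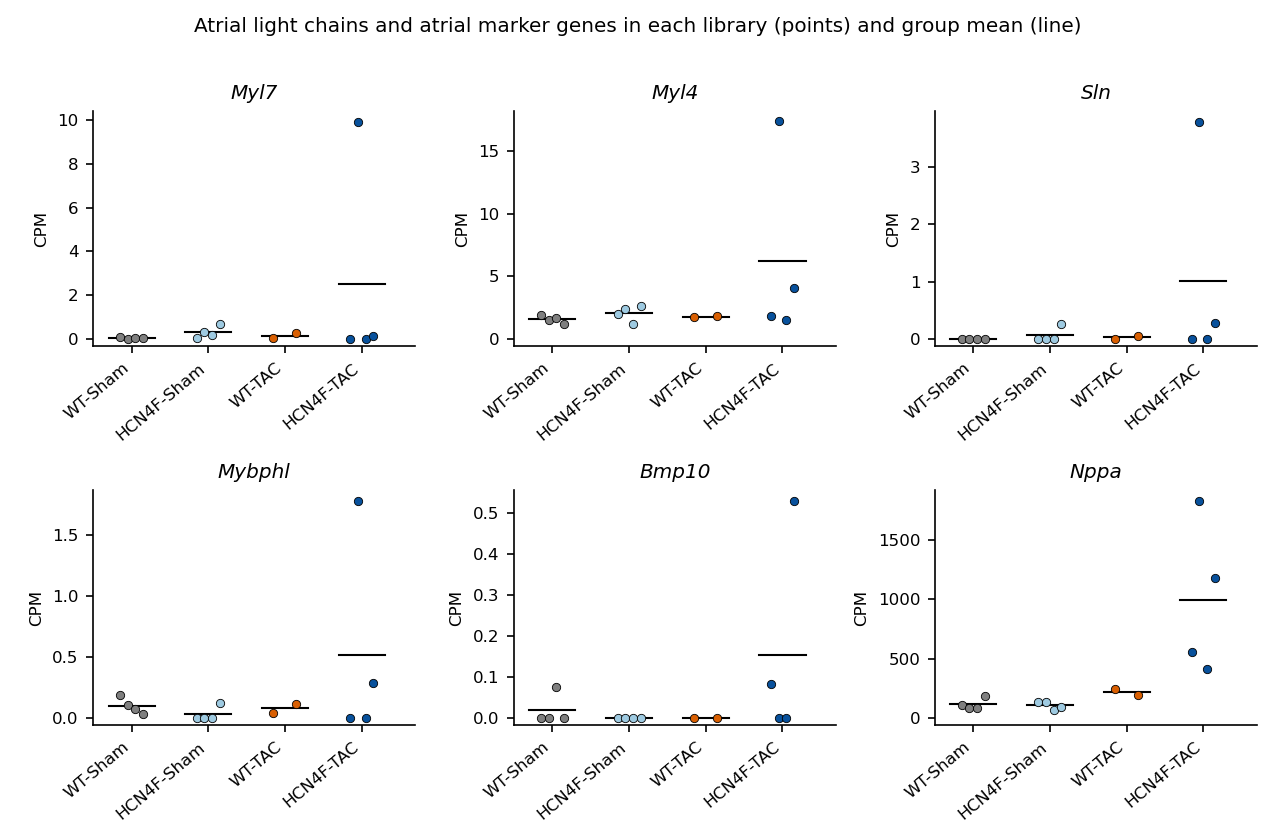
CPM of the atrial light chain genes Myl7 and Myl4 and of 4 atrial marker genes in each library (points) with the group mean (line). HCN4F-TAC replicate 2 is the highest point for Myl7 (9.91 CPM), Myl4 (17.3 CPM), Sln (3.78 CPM), Mybphl (1.78 CPM) and Nppa (1831 CPM), and it has no read of Bmp10.

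Between the genotypes none of the 9 tested isoform genes was called, after Sham (0.209% of all tested genes called) or after TAC (0.0719% called), by edgeR's quasi-likelihood test. At an unadjusted p under 0.05 there was 1 after Sham, Actc1, and there were 3 after TAC, where 2323 and 1904 of all 15292 tested genes had such a p. DESeq2 on all groups called 1 after TAC, Myh7, and none after Sham, among 87 and 74 calls over all 15292 genes. Among TAC libraries, Myh7 was 3.25-fold higher in HCN4F (log2 fold change 1.70, SE 0.46, adjusted p = 0.177) and Acta1 2.41-fold higher (1.27, SE 0.38, adjusted p = 0.211), both by edgeR. Myh6 was lower in HCN4F-TAC (log2 fold change -0.35, SE 0.10, adjusted p = 0.17 by edgeR). For these 3 genes the 4 HCN4F-TAC libraries did not overlap the 2 WT-TAC libraries, as was the case for 22.3% of all tested genes. Without HCN4F-TAC replicate 2, the log2 fold change was 1.24 for Myh7, 1.00 for Acta1 and -0.28 for Myh6, with adjusted p-values of 0.268, 0.403 and 0.278 by edgeR.

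After Sham, Actc1 and Myh6 were lower in HCN4F than in WT in every library, with log2 fold changes of -0.35 and -0.13 and adjusted p-values of 0.0871 and 0.459 by edgeR. Of all tested genes, 8.55% had no overlap in that comparison. The Myh7 log2 fold change was 0.37 (SE 0.35) and that of Acta1 0.16 (SE 0.30), with adjusted p-values of 0.657 and 0.845 by edgeR. The ratio of Acta1 to Actc1 was higher in HCN4F-Sham by 0.55 on the log2 scale (exact permutation p = 0.0571, adjusted p = 0.267). Tnnt1 differed by 0.02 on the log2 scale in either surgery group (SE 0.16 and 0.20), Acta2 by -0.36 and -0.11, Myh7b by -0.17 and -0.38 and Myl4 by 0.40 and 1.81, with overlapping libraries in all 8 cases. Without HCN4F-TAC replicate 2 the values between TAC genotypes were 0.45 for Myl4, 0.057 for Acta2, -0.14 for Tnnt1 and -0.26 for Myh7b, so Acta2 and Tnnt1 changed sign.

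Whether the response to TAC itself differed between genotypes was tested by the interaction. No isoform gene passed, and of all 15292 genes 0 had an adjusted p under 0.05 in edgeR's quasi-likelihood test, with 1418 at an unadjusted p under 0.05 and 34 by DESeq2. The interaction was 1.34 (SE 0.57) for Myh7 and 1.11 (SE 0.47) for Acta1 on the log2 scale, both larger in HCN4F, with adjusted p-values of 0.511 and 0.511 by edgeR. It was -0.21 (SE 0.13) for Myh6 and 0.29 (SE 0.14) for Actc1, with adjusted p-values of 0.636 and 0.549 by edgeR. Leaving out HCN4F-TAC replicate 2 gave 0.87 for Myh7, 0.84 for Acta1, -0.15 for Myh6 and 0.21 for Actc1. The same difference in the Myh7 to Myh6 ratio was 1.42 (exact permutation p = 0.216) and in the Acta1 to Actc1 ratio 0.74 (exact permutation p = 0.344), and without that library they were 0.99 (exact permutation p = 0.304) and 0.58 (exact permutation p = 0.446).

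Tnni3 and Tnnt2 encode the adult cardiac troponin I and troponin T, and Myl2 the ventricular regulatory light chain. All were lower in every TAC library than in every Sham library of the same genotype. In either direction, 39.2% of all tested genes in WT and 15.1% in HCN4F had no overlap between TAC and Sham. Tnni3 had a log2 fold change of -0.52 (SE 0.14, adjusted p = 0.0427) in WT and -0.59 (SE 0.11, adjusted p = 0.00221) in HCN4F by edgeR. For Tnnt2 it was -0.39 (SE 0.09, adjusted p = 0.0257) and -0.23 (SE 0.07, adjusted p = 0.0397) by edgeR. Myl2 passed the p-value threshold in HCN4F with -0.30 (SE 0.07, adjusted p = 0.0131 by edgeR) and not in WT with -0.25 (SE 0.09, adjusted p = 0.12 by edgeR). Myl3, the adult essential light chain, was at -0.08 in WT and -0.18 in HCN4F with adjusted p-values of 0.652 and 0.133 by edgeR. None of the 4 passed the fold threshold, and the median was -0.32 in WT and -0.26 in HCN4F. By the adjusted p-value alone, 2 of 4 passed in WT and 3 of 4 in HCN4F, all lower, against 4.54% and 13.6% of all tested genes.

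Among 16 other sarcomere genes of the working heart, such as those of titin and alpha-actinin, none was called. At the adjusted p-value alone, 3 passed in WT, all higher, and 8 passed in HCN4F, 7 higher and 1 lower, where 4.54% and 13.6% of all tested genes passed. Actn2, alpha-actinin of the Z-disc, had log2 fold changes of 0.37 and 0.30, and Csrp3, a Z-disc protein, 0.64 in HCN4F (edgeR, adjusted p = 0.000312). Tpm1, the main tropomyosin, was the lower one at -0.26 (edgeR, adjusted p = 0.021).

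Of 21 other developmental, skeletal or smooth muscle isoform genes, 13 were tested. Mybpc2, the fast skeletal myosin-binding protein C, rose in both genotypes, from 12.5 to 18.8 CPM in WT-Sham to 53.6 and 51.5 CPM in WT-TAC. In HCN4F it was at 10.4 to 20.4 CPM after Sham and 34.3 to 50.4 CPM after TAC, with no overlap in either genotype. Its log2 fold change was 1.82 (SE 0.21, adjusted p = 0.00123) in WT and 1.47 (SE 0.18, adjusted p = 0.000236) in HCN4F by edgeR. In HCN4F Myh8, the perinatal skeletal myosin, also passed the call rule, though it was read at only 0.0706 to 0.65 CPM after TAC and at most 0.0603 CPM after Sham. Tnnt3, fast skeletal troponin T, rose with a log2 fold change of 1.15 (edgeR, adjusted p = 0.0283) and Tnni2, fast skeletal troponin I, fell by 1.21 on the log2 scale (edgeR, adjusted p = 0.0137). Both were below 2 CPM in all libraries. Of the 13, 1 was called in WT and 4 of 13 in HCN4F, 3 of them higher, against 0.706% and 2.75% of all tested genes. Skeletal muscle markers summed to 2202 to 2952 CPM in the Sham libraries and 2044 to 2438 CPM in the TAC libraries. Nearly all of this sum was Ckm, the muscle creatine kinase, which heart muscle also makes (2041 to 2949 CPM), and the other 8 markers were each below 2 CPM in every library. Among the 4 of 9 tested, 1 rose and 1 fell in HCN4F (Tnnt3 and Tnni2, members of both lists).

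Among 25 tested regulators of isoform genes, 2 were called, both higher after TAC in HCN4F, where 2.75% of all tested genes were called, and none was called in WT. Dio2, the deiodinase that activates thyroid hormone, was at 0.376 to 1.00 CPM in HCN4F-Sham and 1.52 to 3.55 CPM in HCN4F-TAC (log2 fold change 1.75, SE 0.30, adjusted p = 0.00116 by edgeR). In WT it was also higher after TAC, at 1.56 and 1.23 CPM against 0.369 to 0.803 CPM after Sham, though not called. Vgll2, a cofactor of TEAD factors, was at 0 to 0.603 CPM in HCN4F-Sham and 0.353 to 4.80 CPM in HCN4F-TAC, with overlapping libraries (log2 fold change 3.35, SE 0.82, adjusted p = 0.0175 by edgeR). Under the fold threshold, Tead1, a factor of the M-CAT element, was higher with log2 fold changes of 0.56 in WT (SE 0.14, adjusted p = 0.0319) and 0.51 in HCN4F (SE 0.11, adjusted p = 0.00701) by edgeR. Srf, serum response factor, was at 0.24 (SE 0.14, adjusted p = 0.306) in WT and 0.42 (SE 0.11, adjusted p = 0.0193) in HCN4F by edgeR. Thrb, a thyroid hormone receptor, was at -0.54 in HCN4F (SE 0.14, adjusted p = 0.0196 by edgeR). By the adjusted p-value alone, 1 of 25 passed in WT and 8 of 25 in HCN4F, 7 of these higher, against 4.54% and 13.6% of all tested genes.

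Markers of other cells of the ventricle were read in the same libraries. Activated fibroblast markers summed to 429 to 448 CPM in WT-Sham, 379 to 544 CPM in HCN4F-Sham, 462 and 562 CPM in WT-TAC and 575 to 1190 CPM in HCN4F-TAC. Of these 6 markers, 4 were called in HCN4F, all higher, where 2.75% of all tested genes were called. These were Comp with a log2 fold change of 3.18, Cthrc1 with 2.18, Postn with 2.07 and Col1a1 with 1.14 (edgeR, adjusted p = 0.00339, 0.0361, 0.00189 and 0.00125). No marker of endothelial cells (5 tested) or macrophages (5 tested) and none of the 10 heart muscle cell markers was called in any comparison. By the adjusted p-value alone, 3 of the heart muscle cell markers passed in WT (1 higher, 2 lower) and 5 in HCN4F (2 higher, 3 lower), against 4.54% and 13.6% of all tested genes. Their sum was 46549 to 49228 CPM in WT-Sham, 40647 to 49275 CPM in HCN4F-Sham, 42052 and 43935 CPM in WT-TAC and 35385 to 42230.1 CPM in HCN4F-TAC. The part of cell composition in the isoform levels was not tested.

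The genes most like Acta1 over the 14 libraries were Synpo2l (Pearson r = 0.98 of log2 CPM), Gnao1 (r = 0.98) and Scml4 (r = 0.97), among 12555 tested genes with a mean of at least 1 CPM. Synpo2l, a protein of the Z-disc, was at 106 to 147 CPM in the Sham libraries, 282 and 442 CPM in WT-TAC and 507 to 763 CPM in HCN4F-TAC, the same order of groups as Acta1. For Myh7 the closest were Bcl2 (r = 0.98) and Ccdc136 (r = 0.97). For Myl7 they were Bin1 (r = 0.85), Imp4 (r = 0.84) and Meis3 (r = 0.81), and these correlations were not computed without HCN4F-TAC replicate 2, where Myl7 had most of its reads. The points share the 4 groups, so a gene that differs between TAC and Sham is like any other that does.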

How the data were processed

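Left ventricular RNA was sequenced after poly(A) selection in 14 libraries, and the authors deposited 1 table of raw read counts per gene (whole numbers, not normalized), with GRCm38 named as genome build in the submitters' processing notes. Aligner, counting tool, read length and use of strand are not given in the sources used here. The table holds 2 further sample columns that match no sample description used here, and they entered no step. Counts were scaled by TMM and tested with edgeR 4.0.16 (R 4.3.3), by the quasi-likelihood test with robust estimation, 1 mean per group, all 14 libraries in 1 fit and edgeR's filter on low counts. P-values were adjusted by Benjamini-Hochberg over 15292 genes. A gene was called at an adjusted p-value below 0.05 with a log2 fold change above 1 or below -1, and in the interaction at the adjusted p-value alone. The SE was the log2 fold change divided by the square root of F. Isoform ratios were compared as log2 of (count + 0.5) ratios by two-sided exact permutation tests with Python 3.11.15. Scripts were tested on simulated data.

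Groups came from the genotype and treatment labels. The study describes the libraries of a group as biological replicates. Replicates of a group differed by more than sampling noise (chi-square per gene 6.60 to 66.2). The isoform genes and all lists were chosen with earlier results of these data known. Named genes were the 10 isoform genes, their 4 adult partners, the called list genes with the largest fold changes and, for Acta1, Myh7 and Myl7, the 3 genes with the highest correlation. One of these for Myh7 is not reported here. Actn2, Csrp3, Tpm1, Tead1, Srf and Thrb were named after their values were seen. Alternatives covered DESeq2 1.42.0, normalization, filters, fits on the compared groups, a replicate block and leaving out libraries. The one without HCN4F-TAC replicate 2 and HCN4F-Sham replicate 4 together was added after seeing the data. Exon lengths and positions came from GENCODE vM21 on GRCm38, and sequences from RefSeq.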

Additional observations from a re-analysis of the deposited data

Results flagged for a closer look

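In HCN4F-TAC replicate 2 the CPM of Myl4 was 17.3 and that of Myl7 was 9.91, each far above the other 3 HCN4F-TAC libraries by Dixon's test for a single distant value, with a gap of 0.837 and 0.984 of the group's range. Of 54 groups of values tested, only these 2 passed, and chance gives about 1 in 20, so 2 are no more than chance alone would give. The log2 ratios of Myl4 to Myl3 and of Myl7 to Myl2 were among the 54 and did not pass. The atrial genes Sln (3.78 CPM) and Mybphl (1.78 CPM) were highest in the same library, as were Nppa and Dkk3, while of the other atrial markers Bmp10 had no read there, Stard10 was at its lowest (10.5 CPM) and Kcna5, Gja5, Nr2f1 and Nr2f2 lay within the range of the other libraries. HCN4F-TAC replicate 4 was second highest for Sln, Mybphl and Myl4 and highest for Bmp10 (0.528 CPM). The part of atrial tissue in the values of Myl4 and Myl7 was not tested.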

How the results depend on the processing

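The number of isoform genes called kept within 1.5 times its value except in these cases. For TAC against Sham in WT it was 2 in place of 1 with DESeq2 or edgeR fitted on the compared groups only, Myh7 being added. For TAC against Sham in HCN4F it was 5 in place of 2 with the adjusted p-value alone, which added Myh6, Actc1 and Tnnt1 and which 13.6% of all tested genes passed. These 3 did not pass with edgeR on the compared groups only (adjusted p = 0.128, 0.113 and 0.0594). For HCN4F against WT in TAC it was 1 in place of 0 with DESeq2 on all groups (Myh7, log2 fold change 1.69, adjusted p = 0.0185), and 0 to 1 over the fits that left out 1 library, the 1 being Acta1 without HCN4F-TAC replicate 3 (log2 fold change 1.47, edgeR adjusted p = 0.0398). In HCN4F the differences of medians of the Myh7 to Myh6 and Acta1 to Actc1 ratios were 2.26 and 4.03 (exact permutation p = 0.0571 for both). The cause was not tested in any of these cases.

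The sign of some differences near 0 changed. Actc1 in WT was at -0.000377 with a mean CPM filter of 1, at -0.021 in the replicate block and at -0.10 to 0.11 over the leave-one-out fits. Tnnt1 between Sham genotypes was at -0.00246 in the replicate block and at -0.14 to 0.14 over the leave-one-out fits. Without the 2 libraries with the most Myl7 reads, Myh7b in HCN4F was at 0.18, and Acta2 and Tnnt1 between TAC genotypes at 0.070 and -0.12. Leave-one-out ranges were -0.25 to 0.051 for Myh7b in HCN4F, and -0.27 to 0.06 for Acta2, -0.14 to 0.092 for Tnnt1 and -0.16 to 0.048 for Actc1 between TAC genotypes. The Myh7b to Myh6 ratio between Sham genotypes was at 0.020 by medians, and its interaction at 0.16 without the 2 libraries and at -0.13 to 0.10 leave-one-out. The Acta2 to Actc1 ratio between Sham genotypes was at 0.00070 as a share in percent and at 0.053 by medians, and its interaction at 0.012 by medians, 0.26 without the 2 libraries and -0.25 to 0.20 leave-one-out. Of the values not printed, Myl7 changed direction in 7 of 89 alternatives, and the interactions of Myh7b, Acta2, Tnnt1 and Myl4 in 10 of 88.

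The replicate block left the number of isoform genes called at 1 in WT and 2 in HCN4F, while calls over all genes in WT went from 108 to 68. Replicate numbers did not pair the samples (18 pairs, correlations of -0.120 to 0.159, 2 of them over 0.1). Over all genes the calls between TAC genotypes went from 11 to 87 with DESeq2 on all groups, and those between Sham genotypes from 32 to 74. With 2 WT-TAC libraries the exact permutation test within WT cannot give a p below 0.0667.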
